A study of Mus musculus with 6 samples.

Results

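The 10 genes described here make, recycle and convert pyrimidine nucleotides: Dhodh, Cad, Umps, Ctps, Ctps2, Uck1, Uck2, Slc29a1, Cmpk1 and Nme1. They were chosen by name, as the enzymes of de novo pyrimidine synthesis and of uridine salvage with the kinases that follow them, and are 10 of the 32285 genes in the count tables. Single-cell RNA was measured in bone marrow cells enriched for c-Kit with magnetic beads, from 9 female BALB/c mice that were 10 weeks old at harvest. The 3 groups of 3 mice were non-tumor-bearing mice (NTB), mice bearing 4T1 tumors and given vehicle (Veh), and mice bearing 4T1 tumors and given brequinar (BRQ). Vehicle was DPBS, injected intraperitoneally every day for 2 weeks from the time tumors could first be measured, and brequinar was given in the same way at 10 mg/kg. 4T1 is a transplanted BALB/c mammary carcinoma line, so both tumor groups stand for 1 cell line. Each of 3 pools was 1 lane and held 1 mouse of each group, told apart by hashtag antibodies.

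Cells make UMP, the parent of all pyrimidine nucleotides, in a chain of reactions from glutamine, bicarbonate and aspartate. CAD carries out the opening steps, DHODH oxidizes dihydroorotate to orotate at the inner mitochondrial membrane, and UMPS turns orotate into UMP. The salvage route takes up uridine through transporters such as SLC29A1 and phosphorylates it with the uridine-cytidine kinases UCK1 and UCK2. CMPK1 and the nucleoside diphosphate kinase NME1 then build the triphosphates, and CTPS and CTPS2 aminate UTP to CTP. Brequinar inhibits DHODH. Proliferating blood progenitors draw on these routes for RNA and DNA synthesis.

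The filters kept 9593 to 11994 of 11441 to 14297 barcodes per pool, and 15966 cells were assigned to 1 mouse. Pools shared 38 to 48 cell barcodes, under 0.4% of the smaller pool. A UMI is 1 counted transcript molecule. A cell was taken as a granulocyte-monocyte progenitor (GMP) when its Ms4a3 level, scaled to 10000 UMIs per cell and put on the ln(1 + x) scale, exceeded 3. There were 3916 of them, between 88 and 177 per NTB mouse, 95 to 1017 per Veh mouse and 653 to 806 per BRQ mouse. This is a range cut from a score and not a sharp type, since a limit of 2.5 would add 3075 cells. All 8 GMP markers were found in each group of GMPs, at a summed level of 32300 to 43200 CPM (UMIs of a gene scaled to a common library total). Other classes are named with -like from marker genes in clusters that were found without the 10 genes. The counts were summed per mouse and class, so that the mouse was the replicate. Fold changes are on the log2 scale with their standard error (SE), and a gene was called when its adjusted p over all genes tested was under 0.05 (edgeR quasi-likelihood test, Benjamini-Hochberg).

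The sequences just before the transcription starts of 4 genes are shown because these are the members that were called between groups of mice in at least 1 cell class. They are RefSeq promoter windows of GRCm38.p6, each from 120 bases before a start to 20 bases after it, written 5′ to 3′ on the gene's strand. Capitals mark the hexamer CACGTG, the E-box read by MYC and other basic helix-loop-helix factors, which is its own reverse complement.
Nme1 promoter, chr11:93968253-93968392, minus strand: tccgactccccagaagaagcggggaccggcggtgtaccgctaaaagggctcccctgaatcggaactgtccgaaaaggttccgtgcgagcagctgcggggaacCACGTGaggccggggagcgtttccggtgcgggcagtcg
Cad promoter, chr5:31054660-31054799, plus strand: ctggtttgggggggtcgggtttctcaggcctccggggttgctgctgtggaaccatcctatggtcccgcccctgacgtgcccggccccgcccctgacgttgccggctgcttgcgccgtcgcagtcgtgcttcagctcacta
Uck2 promoter, chr1:167285108-167285247, minus strand: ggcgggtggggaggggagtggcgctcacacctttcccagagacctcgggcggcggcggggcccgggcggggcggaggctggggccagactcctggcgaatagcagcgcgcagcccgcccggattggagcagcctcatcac
Ctps2 promoter, chrX:162901440-162901579, plus strand: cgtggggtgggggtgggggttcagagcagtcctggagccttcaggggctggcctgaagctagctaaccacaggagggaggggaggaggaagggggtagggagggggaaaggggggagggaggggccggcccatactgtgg

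RefSeq windows of 300 bases were found for 9 of the 10 genes, all but Dhodh. These genes had 21 windows, of which 3 held the hexamer, against 7.15% of 32851 windows of the same length, and the 3 belonged to Nme1 and Slc29a1. In Nme1 it lay 18 bases before the start shown and 29 bases before another start, and in Slc29a1 75 bases before 1 of 8 starts. These starts lay 249, 496 and 4360 bases inside the annotated genes, so each of these hexamers lies within its gene span. The starts shown for Uck2 and Ctps2 also lay inside their genes, by 193 and 322 bases. In Cad the letters were absent from the window and lay 78 bases after the start, inside the transcript. The windows of the other 6 genes held no match.

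The de novo enzymes come first. Cad lies on chromosome 5 (31054780 to 31078479, GENCODE annotation of GRCm38). In GMPs it stood at 28.3, 23.8 and 18.8 CPM in the NTB mice of pools 1, 2 and 3, at 34.9, 31.3 and 28.4 CPM in the Veh mice and at 26.8, 28.2 and 30.5 CPM in the BRQ mice. The Veh mice did not overlap the NTB mice, but only just, since the lowest Veh mouse stood at 28.35 CPM and the highest NTB mouse at 28.34 CPM, and the BRQ mice overlapped both groups. Cad was higher in Veh than in NTB GMPs by 0.50 ± 0.16 (SE, n = 3 and 3 mice, adjusted p = 0.049, edgeR), a 1.42-fold change. This call was lost in 13 of 23 alternative settings. Leaving out NTB mouse 2 or 3, Veh mouse 1 or 2, or BRQ mouse 1 or 2 each ended it, with values from 0.31 to 0.55. BRQ against Veh gave −0.17 ± 0.11 (adjusted p = 0.36, edgeR) and BRQ against NTB 0.33 ± 0.16 (adjusted p = 0.24, edgeR).

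Dhodh, which encodes the enzyme that brequinar inhibits, lies on chromosome 8 (109591343 to 109608673) and was the most sparsely counted of the de novo genes, with 6 to 120 UMIs per mouse in GMPs. It stood at 6.54, 8.78 and 5.29 CPM in NTB mice, 8.06, 6.89 and 6.41 CPM in Veh mice and 7.19, 6.61 and 8.68 CPM in BRQ mice. The 3 groups overlapped throughout. The difference between Veh and NTB was 0.13 ± 0.29 with a 95% interval from −0.47 to 0.73 on the log2 scale, and that between BRQ and Veh was 0.03 ± 0.19 with an interval from −0.36 to 0.41. A change of Dhodh RNA was therefore not detectable at this depth, and the intervals leave room for moderate changes in both directions. Dhodh was called in none of the 3 cell classes in which it passed the low-count filter, with differences from −0.04 to 0.34.

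Umps, on chromosome 16 (33954782 to 33967038), stood at 62.1, 37.6 and 40.9 CPM in NTB GMPs, 56.0, 52.6 and 48.3 CPM in Veh GMPs and 47.1, 42.6 and 47.0 CPM in BRQ GMPs. All BRQ mice were below all Veh mice. The fitted difference was −0.21 ± 0.11 (adjusted p = 0.22, edgeR), so that it did not pass the test. Umps overlaps Gm15829 on the other strand.

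Of the CTP synthases, Ctps2 on the X chromosome (162901238 to 163032508) gave the clearest difference with brequinar. Its level in GMPs was 22.9, 15.7 and 14.9 CPM in NTB mice, 12.8, 13.8 and 13.01 CPM in Veh mice and 18.6, 20.6 and 18.6 CPM in BRQ mice. The Veh mice lay lowest, below every NTB mouse and every BRQ mouse, and the BRQ mice lay within the NTB range. Ctps2 was higher in BRQ than in Veh GMPs by 0.56 ± 0.13 (n = 3 and 3 mice, adjusted p = 0.0048, edgeR), a 1.47-fold change. The drop from NTB to Veh, −0.38 ± 0.19, did not pass the test (adjusted p = 0.22, edgeR). The BRQ call was kept in 19 of 22 settings. It was lost without Veh mouse 1 (0.54, adjusted p = 0.066), in all cells of GMP-like clusters (0.36, adjusted p = 0.06) and at the Ms4a3 limit of 2.5 (0.35, adjusted p = 0.061). Ctps2 overlaps S100g on the other strand.

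Ctps, on chromosome 4 (120539868 to 120570276), stood at 21.8, 20.7 and 21.2 CPM in NTB GMPs, at 25.7, 21.3 and 26.4 CPM in Veh GMPs and at 20.9, 20.8 and 29.9 CPM in BRQ GMPs. The groups overlapped, and the differences were 0.26 ± 0.19 for Veh against NTB, −0.07 ± 0.13 for BRQ against Veh and 0.19 ± 0.19 for BRQ against NTB, none of them called.

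The nucleotide kinase Nme1, on chromosome 11 (93956979 to 93968521), showed the smallest adjusted p of the 10 genes. GMPs held 393.5, 379.5 and 388.5 CPM in NTB mice, 612.6, 562.8 and 582.3 CPM in Veh mice and 478.1, 479.3 and 508.8 CPM in BRQ mice. The 3 groups did not overlap, with NTB lowest, BRQ between and Veh highest in each of the 3 pools. Nme1 was higher in Veh than in NTB GMPs by 0.60 ± 0.08 (adjusted p = 5.9e-05, edgeR), lower in BRQ than in Veh GMPs by −0.26 ± 0.08 (adjusted p = 0.028, edgeR) and higher in BRQ than in NTB GMPs by 0.34 ± 0.08 (adjusted p = 0.016, edgeR). The call between Veh and NTB held in 22 of 23 settings. The call between BRQ and Veh was lost in 9 of 23, among them the fits that left out any 1 Veh mouse or BRQ mouse 1 or 2, with values from −0.29 to −0.23. It was also lost with library totals (−0.07, adjusted p = 0.53) and with limits read as UMIs per cell (−0.71, adjusted p = 0.41, edgeR). The call between BRQ and NTB was lost without NTB mouse 2 (0.33, adjusted p = 0.094) or NTB mouse 3 (0.33, adjusted p = 0.06).

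Nme1 has a close paralog next to it, Nme2, and overlaps the readthrough gene Gm20390, so the division of reads between them is uncertain. Gm20390 was not among the counted genes. Nme2 differed between the groups of GMPs by 0.61 ± 0.12 for Veh against NTB (adjusted p = 0.0013), by −0.51 ± 0.11 for BRQ against Veh (adjusted p = 0.0034) and by 0.10 ± 0.11 for BRQ against NTB (adjusted p = 0.66, all edgeR).

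Cmpk1, the UMP-CMP kinase on chromosome 4 (114959336 to 114987241), stood at 92.7 to 112 CPM in NTB, 101 to 117 CPM in Veh and 110.4 to 123 CPM in BRQ GMPs. The groups overlapped. The differences were 0.12 ± 0.10 for Veh against NTB, 0.11 ± 0.09 for BRQ against Veh and 0.22 ± 0.10 for BRQ against NTB (adjusted p = 0.2, edgeR).

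Among the salvage genes, Uck2 on chromosome 1 (167222883 to 167285320) stood at 36.0, 54.6 and 52.5 CPM in NTB, 61.9, 60.2 and 63.7 CPM in Veh and 54.2, 55.7 and 70.4 CPM in BRQ GMPs. All Veh mice were above all NTB mice, and NTB mouse 1 was the lowest of all 9. The difference was 0.33 ± 0.14 (adjusted p = 0.13, edgeR), and with the pool as a block it was 0.36 ± 0.12 (adjusted p = 0.035, edgeR). It also passed in all GMP-like clusters (0.59, adjusted p = 0.00068) and at the Ms4a3 limit of 2.5 (0.52, adjusted p = 0.0043). Uck2 overlaps Gm37982 and Gm2453 on the other strand.

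Uck1, on chromosome 2 (32255002 to 32260159), had 4 to 144 UMIs per mouse in GMPs and stood at 4.36 to 10.0 CPM in NTB, 7.52 to 14.4 CPM in Veh and 8.56 to 10.5 CPM in BRQ mice. The groups overlapped, and the difference between Veh and NTB was 0.60 ± 0.30 (95% interval −0.02 to 1.22). Uck1 overlaps Pomt1 on the other strand.

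Slc29a1, the equilibrative nucleoside transporter gene on chromosome 17 (45585200 to 45599606), stood at 8.72, 14.4 and 13.96 CPM in NTB, 15.4, 11.3 and 13.4 CPM in Veh and 15.6, 18.1 and 20.5 CPM in BRQ GMPs. All BRQ mice were above all mice of the other groups. The differences of 0.34 ± 0.14 from Veh (adjusted p = 0.11) and 0.47 ± 0.21 from NTB (adjusted p = 0.18, edgeR) did not pass the test. Slc29a1 overlaps Gm17080 on the other strand.

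**Figure D1:**
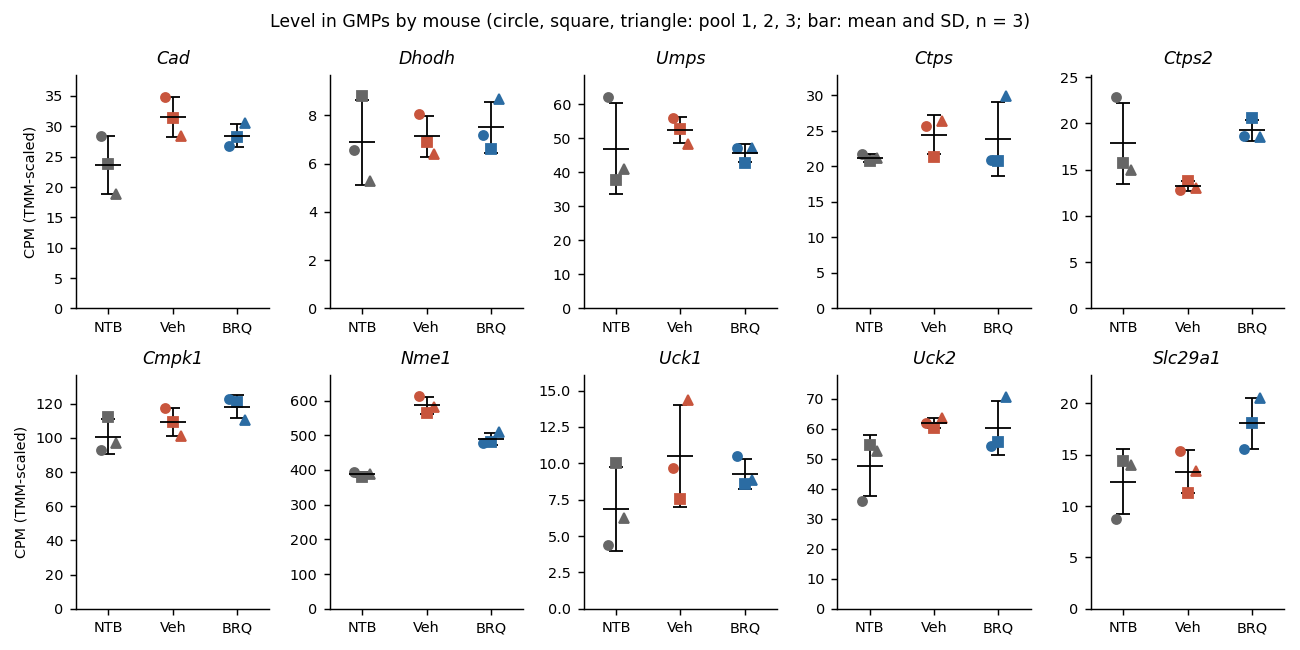
Level of each of the 10 genes in GMPs (CPM after TMM scaling, vertical axis from 0) in every mouse of the NTB, Veh and BRQ groups. Circles, squares and triangles are pools 1, 2 and 3, and the bars are the mean and SD of 3 mice. Nme1 separates the 3 groups, the Veh mice are lowest for Ctps2 at 12.8 to 13.8 CPM, and the Dhodh points overlap.

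Counted together, 2 of the 10 genes were called between Veh and NTB GMPs, both higher, against 11.3% of the 10331 genes tested. The groups did not overlap for 4 of the 10, against 28.4% of all genes. Between BRQ and Veh GMPs 2 were called, 1 in each direction, against 13.4%, and 4 did not overlap, against 30.7%. Between BRQ and NTB GMPs 1 was called against 6.01%, and 2 did not overlap against 25.9%. At an unadjusted p under 0.05 the counts were 3, 3 and 5 of the 10, against 25.7%, 26.5% and 20.9% of all genes, and DESeq2 called 1, 2 and 1, against 8.84%, 9.17% and 5.27%. The counts of members called by edgeR lay within 1 gene of what these shares of all genes give for 10 genes. The median log2 fold changes of the 10 genes were 0.25, −0.06 and 0.26, beside −0.014, 0.001 and −0.003 over all genes. These values depend on the scaling. With library totals in place of TMM factors the median of all genes in GMPs rose to 0.20 for BRQ against Veh and to 0.16 for BRQ against NTB. The share of called genes that were higher in BRQ than in Veh GMPs rose with it from 45.2% to 88.5%, and that in BRQ over NTB GMPs from 42.5% to 83.5%. On that scale Nme1 stood at −0.07 between BRQ and Veh, below the median of all genes but not called (adjusted p = 0.53, edgeR), Ctps2 remained called at 0.76, Slc29a1 (0.56, adjusted p = 0.015) and Cmpk1 (0.30, adjusted p = 0.022) passed the test, and Cad turned to 0.04 (adjusted p = 0.86).

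Other properties of the GMPs moved with the groups. Median UMIs per GMP were 10828.5 to 11581 in NTB mice, 14737 to 17966 in Veh mice and 12168.5 to 15795 in BRQ mice. Cluster 0, led by Fkbp11 and Ctsg, held 21.5% to 25.9% of NTB GMPs, 42.9% to 47.4% of Veh GMPs and 46.3% to 65.4% of BRQ GMPs, and cluster 1, led by Elane and Prtn3, held 47.5% to 54.5%, 29.5% to 42.2% and 12.9% to 38.6%. The 15 neutrophil markers summed to 47300 to 50800 CPM in NTB, 34700 to 38300 CPM in Veh and 27400 to 39100 CPM in BRQ GMPs. The 10 monocyte markers, of which Fn1 had no UMI in NTB and Veh GMPs, summed to 55.4 to 72.5 CPM in NTB and Veh GMPs and to at most 153 CPM in BRQ GMPs, where every mouse was above the other groups. The 12 erythroid markers summed to 67.1 to 134 CPM in NTB, 123 to 147 CPM in Veh and 81.8 to 122 CPM in BRQ GMPs. The part of depth and of these cells in the differences was not tested.

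The makeup by cluster could be held fixed, in fits that were added after the data were seen. Within cluster 0, Nme1 was higher in Veh than in NTB cells by 0.44 ± 0.10 (adjusted p = 0.0098) and lower in BRQ than in Veh cells by −0.29 ± 0.08 (adjusted p = 0.018). Within cluster 1 these values were 0.50 ± 0.10 (adjusted p = 0.0018) and −0.25 ± 0.10 (adjusted p = 0.098). Ctps2 was higher in BRQ than in Veh cells within cluster 0 (0.54 ± 0.16, adjusted p = 0.025) and within cluster 1 (0.88 ± 0.22, adjusted p = 0.0062, all edgeR). The difference between BRQ and NTB was smaller within clusters, at 0.15 ± 0.09 and 0.25 ± 0.10 for Nme1, and neither passed. Cad was not called within either cluster, at 0.13 ± 0.23 in cluster 0 and 0.54 ± 0.26 in cluster 1. The fit in cluster 0 held 21, 35 and 38 GMPs of the NTB mice of pools 1, 2 and 3. Over all cells of cluster 0, not only GMPs, Cad stood at 48.9 ± 6.89 CPM (SD, n = 9 mice). Over all cells it stood at 24.1 ± 5.10 CPM in cluster 1 and 13.6 ± 1.83 CPM in the GMP-like cluster 4.

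**Figure D2:**
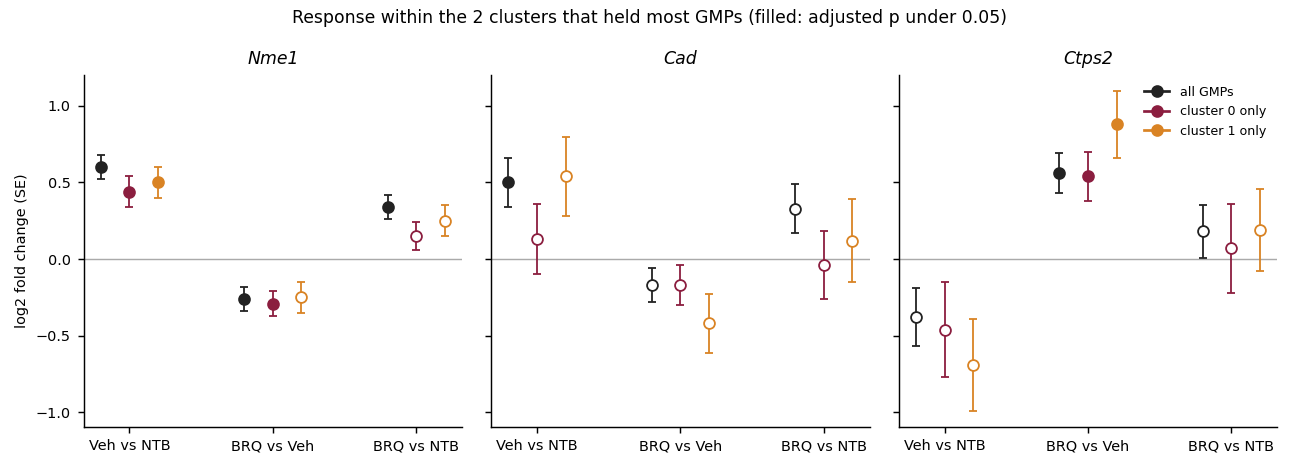
Log2 fold change with its SE of Nme1, Cad and Ctps2 in all GMPs and in the GMPs of cluster 0 or cluster 1 alone, for the 3 comparisons (filled circles, adjusted p under 0.05). Nme1 for Veh against NTB and Ctps2 for BRQ against Veh are filled in all 3 sets of cells, and Cad only in all GMPs.

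The c-Kit-enriched cells also held stem and early progenitor cells, monocyte-like cells and neutrophil-like cells, and the same comparisons were made there. HSC/MPP-like cells numbered 65 to 265 per mouse, and each of their 10 markers had at least 1 UMI in every group. The Veh mouse of pool 2 had 14 such cells and was left out, so that Veh had n = 2. Between Veh and NTB, 3 of the 10 genes were called against 2.96% of 10707 genes. Nme1 stood at 334, 301 and 293 CPM in NTB mice and 486 and 434 CPM in Veh mice. All NTB mice were below all Veh mice, and the difference was 0.59 ± 0.10 (adjusted p = 0.0016, edgeR). Cad was at 38.2, 43.5 and 52.1 CPM in NTB and 65.5 and 82.1 CPM in Veh mice, again without overlap, and differed by 0.60 ± 0.16 (adjusted p = 0.04, edgeR). Uck2, at 48.8, 52.2 and 47.5 CPM against 76.5 and 68.9 CPM, differed by 0.59 ± 0.15 (adjusted p = 0.024, edgeR).

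These 3 calls all rested on Veh mouse 1, without which 1 Veh mouse remained and the adjusted p rose to 0.13 for Nme1 (0.50), 0.14 for Cad (0.82) and 0.45 for Uck2 (0.49). Without Veh mouse 3 Cad was also lost (0.52, adjusted p = 0.12). Leaving out NTB mouse 1 (0.54, adjusted p = 0.088) or 2 (0.58, adjusted p = 0.099) ended the call of Cad, and leaving out NTB mouse 3 that of Uck2 (0.55, adjusted p = 0.14). Between BRQ and NTB, Cad (0.61 ± 0.14, adjusted p = 0.0082) and Nme1 (0.58 ± 0.09, adjusted p = 0.00041, edgeR) were called, 2 of 10 against 6.94%. Cad was at 74.2, 68.7 and 68.9 CPM and Nme1 at 477, 438 and 463 CPM in the BRQ mice, above every NTB mouse. Both calls were lost with clusters found at resolution 0.5 in place of 0.8. Cad then differed by 0.46 (adjusted p = 0.25) and Nme1 by 0.41 (adjusted p = 0.057, edgeR). Between BRQ and Veh none of the 10 was called by edgeR, against 0.056% of all genes. At an unadjusted p under 0.05 the counts were 3 for Veh against NTB, 1 for BRQ against Veh and 4 for BRQ against NTB, against 16.5%, 6.15% and 21.6% of all genes, and DESeq2 called 1, 0 and 2, against 1.62%, 0% and 3.18%. For BRQ against Veh the 95% interval was −0.21 to 0.19 for Nme1 and −0.28 to 0.29 for Cad. Uck2 differed by −0.29 with an interval from −0.55 to −0.03 (adjusted p = 0.75, edgeR). Its BRQ mice, at 58.0, 62.3 and 61.7 CPM, lay below the Veh mice. In these cells the summed HSC/MPP markers were 1640 to 1680 CPM in NTB, 1170 to 1230 CPM in Veh and 1070 to 1310 CPM in BRQ mice, and the 8 GMP markers summed to 3940 to 6010, 6400 to 6870 and 7180 to 9260 CPM. The class joined clusters 6 and 10. Cluster 6 held 72, 93 and 165 cells in NTB and 173, 146 and 187 in BRQ mice. Cluster 10 held 11, 18 and 34 cells in NTB and 72, 75 and 72 in BRQ mice. Cad averaged 43.7 ± 9.95 CPM (SD, 8 mice) in cluster 6 and 62.9 ± 7.94 CPM (5 mice) in cluster 10. Nme1 averaged 274 ± 53.3 CPM and 436 ± 90.7 CPM. The part of the markers and of this makeup in the result was not tested.

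Monocyte-like cells numbered 42 to 350 per mouse. Nme1 stood at 373, 409 and 349.5 CPM in NTB, 558, 591 and 540.1 CPM in Veh and 499.8, 432 and 493 CPM in BRQ mice, so that the 3 groups did not overlap. The difference between Veh and NTB was 0.57 ± 0.10 (adjusted p = 0.002, edgeR) and was called in all 20 alternative settings that could be fitted. Uck2 stood at 82.4, 82.2 and 88.9 CPM in NTB, 109, 118 and 119 CPM in Veh and 108, 99.7 and 115 CPM in BRQ mice. It was higher in Veh than in NTB by 0.43 ± 0.11 (adjusted p = 0.032, edgeR), which was lost in 9 of 20 settings, including the fit without any 1 NTB or Veh mouse (0.40 to 0.48). These were 2 of 10 against 3.46% of 9504 genes. EdgeR called 0 of 10 between BRQ and Veh against 5.18%, and 0 of 10 between BRQ and NTB against 2.83%. At an unadjusted p under 0.05 the counts were 2, 1 and 3 for Veh against NTB, BRQ against Veh and BRQ against NTB, against 18.3%, 18.5% and 13.9% of all genes, and DESeq2 called 2, 0 and 1, against 2.5%, 3.39% and 2.48%. With the pool as a block, Nme1 passed between BRQ and Veh (−0.24 ± 0.08, adjusted p = 0.047) and both Nme1 (0.33 ± 0.08, adjusted p = 0.01) and Uck2 (0.35 ± 0.10, adjusted p = 0.03, edgeR) passed between BRQ and NTB. With library totals the median of all genes in this class rose to 0.13 for BRQ against Veh and 0.10 for BRQ against NTB, the share of called genes that were higher went from 43.1% to 82.6% and from 46.5% to 75.4%, and Nme1 (0.44, adjusted p = 0.0043) and Uck2 (0.45, adjusted p = 0.021, edgeR) passed between BRQ and NTB. Both also passed without BRQ mouse 2 (0.40 each, adjusted p = 0.028 and 0.038, edgeR). The 10 monocyte markers summed to 1820 to 2550 CPM in NTB, 1620 to 2030 CPM in Veh and 2090 to 2320 CPM in BRQ mice.

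Neutrophil-like cells numbered 96 to 908 per mouse, and Cmpk1 stood there at 74.4 to 122 CPM with 26 to 650 UMIs per mouse. Dhodh, with 0 to 15 UMIs per mouse, and Cad, with 0 to 16, did not pass the low-count filter and were not tested. Of the 8 genes tested none was called by edgeR or DESeq2, against 21.3%, 0.0239% and 8.78% of 8352 genes for Veh against NTB, BRQ against Veh and BRQ against NTB, for edgeR and 18.8%, 0.108% and 8.75% for DESeq2. The counts at an unadjusted p under 0.05 were 1, 0 and 0, against 36.3%, 11.1% and 24.3% of all genes. The 1 was Cmpk1, with 112, 122 and 108 CPM in NTB and 94.5, 74.4 and 81.1 CPM in Veh mice and a difference of −0.43 ± 0.18 (adjusted p = 0.099, edgeR). The class was made of different cells in the groups: cluster 2, led by Chil3 and Camp, held 70.8% to 76.0% of it in NTB mice, and cluster 3, led by Wfdc17 and Il1b, 64.2% to 88.8% in Veh and 36.3% to 74.3% in BRQ mice. Cmpk1 averaged 157 ± 16.0 CPM (SD) over 8 mice in cluster 2 and 63.5 ± 28.5 CPM over 8 mice in cluster 3. Within cluster 2 the difference between Veh and NTB was 0.10 (adjusted p = 0.9), within cluster 3 0.84 (adjusted p = 0.74) and within cluster 8 −0.47 (adjusted p = 0.56, edgeR, added after the data were seen). Between BRQ and NTB, Nme1 differed by 0.34 ± 0.21 in the whole class (adjusted p = 0.35), by 1.02 ± 0.16 within cluster 2 (adjusted p = 7.4e-05), by 1.07 ± 0.72 within cluster 3 (adjusted p = 0.89) and by −1.2 ± 0.39 within cluster 8 (adjusted p = 0.081, all edgeR). NTB mouse 1 was left out of the fits in clusters 3 and 8 (6 and 17 cells). Veh mouse 2 was left out in clusters 2 and 8 (16 and 8 cells), so these groups had n = 2. Over all cells of the mice used, Nme1 had 154 UMIs in cluster 3 and 78 in cluster 8. Differences between these clusters were not tested.

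**Figure D3:**
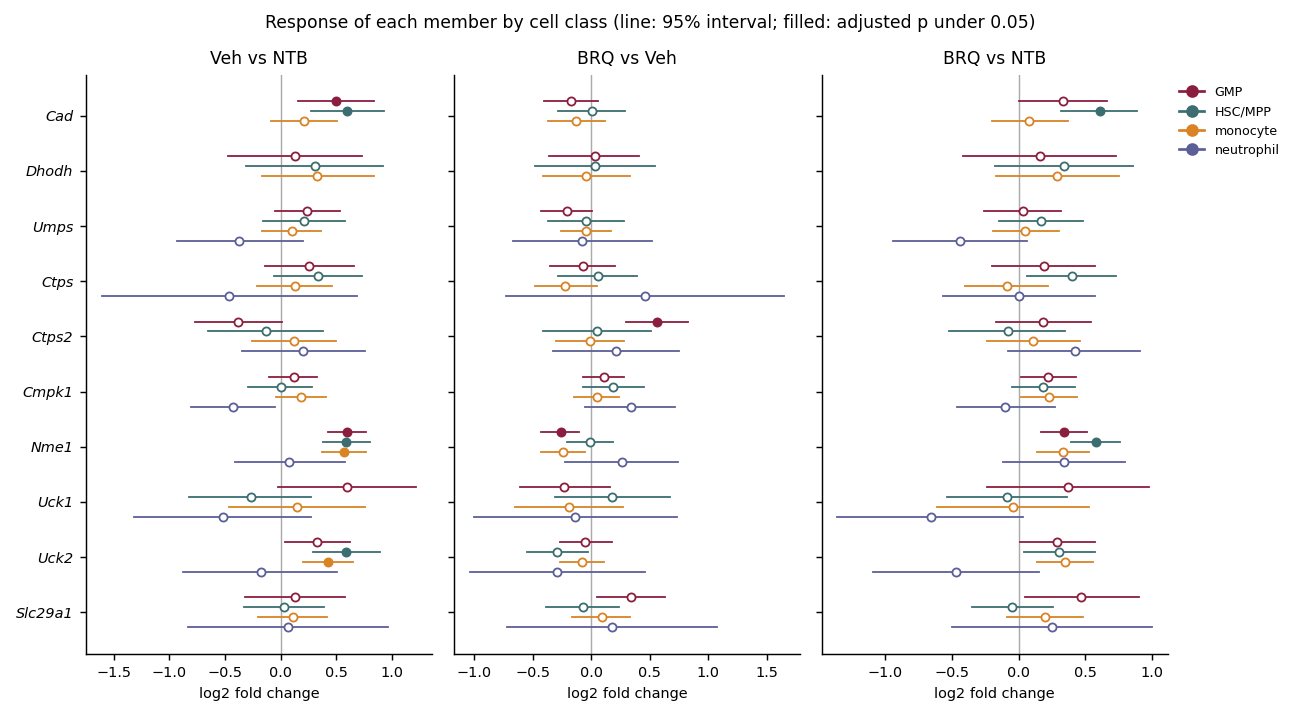
Log2 fold change of each gene (horizontal axis) with its 95% interval in GMPs, HSC/MPP-like, monocyte-like and neutrophil-like cells for the 3 comparisons, with filled circles at an adjusted p under 0.05. Nme1 is filled for Veh against NTB in 3 of the 4 classes, at 0.57 to 0.60, and every Dhodh interval includes 0.

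Whether a response differed between classes was tested within mice, on the difference of log2 CPM between GMPs and another class (limma, adjusted over all genes). For Veh against NTB, the response of Nme1 in GMPs minus that in HSC/MPP-like cells was 0.06 with a 95% interval from −0.14 to 0.26, and minus that in monocyte-like cells 0.01 (−0.17 to 0.19). For BRQ against Veh the response of Nme1 in GMPs lay 0.29 below that in HSC/MPP-like cells (−0.29, interval −0.49 to −0.09), which did not pass (adjusted p = 0.24, limma). The Ctps2 response to BRQ in GMPs differed from that in HSC/MPP-like cells by 0.36 (−0.25 to 0.97), also without a call. Against HSC/MPP-like and monocyte-like cells none of the 10 genes was called in any comparison. Few genes were called there at all, 0.0199%, 0.884% and 2.87% against HSC/MPP-like cells and 0.258%, 0.14% and 0.634% against monocyte-like cells for Veh against NTB, BRQ against Veh and BRQ against NTB. Against neutrophil-like cells 1 of 8 was called for Veh against NTB, where 23.7% of all 8088 genes were, and 0 for BRQ against Veh (0.507% of all genes) and BRQ against NTB (2.44%). It was Cmpk1, at 0.55 ± 0.17 (adjusted p = 0.028, limma), in a class whose clusters differed between groups as given above. Nme1 had the same size there, 0.55 ± 0.20 (adjusted p = 0.063, limma), and passed with the pool as a block (0.55 ± 0.15, adjusted p = 0.015, limma).

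Levels were also compared across 7 classes with at least 20 cells in at least 6 mice, on 1 scale for all classes and in order of the mean log2 CPM. The B-cell-like class is a mixture of cluster 15, led by Ebf1 and Vpreb1, and cluster 16, led by Igkc and Jchain. Cmpk1 stood at 106 ± 34.4 CPM (SD, 3 mice) in cluster 15 and 231.5 CPM (1 mouse) in cluster 16. Slc29a1 stood at 59.95 ± 38.3 CPM in cluster 15 and 11.6 CPM in cluster 16. Cad was highest in erythroid-like cells at 95.4 ± 6.07 CPM (SD, n = 6 mice), then in HSC/MPP-like cells at 49.8 ± 12.3 CPM (n = 8), monocyte-like cells at 46.4 ± 5.06 CPM, GMP-like cells below the Ms4a3 limit at 40.5 ± 12.02 CPM, B-cell-like cells at 39.3 ± 13.4 CPM (n = 6) and GMPs at 30.9 ± 5.03 CPM. It was lowest in neutrophil-like cells at 4.87 ± 2.81 CPM (n = 9). Erythroid-like cells were also highest for Ctps at 52.4 ± 5.94 CPM, against 29.8 ± 4.14 CPM in monocyte-like cells, 25.8 ± 3.69 CPM in GMPs and 6.79 ± 3.25 CPM in neutrophil-like cells. Slc29a1 was at 82.4 ± 12.8 CPM in erythroid-like cells, 50.4 ± 21.4 CPM in B-cell-like, 35.1 ± 3.35 CPM in HSC/MPP-like, 32.7 ± 2.88 CPM in monocyte-like and 21.8 ± 4.23 CPM in GMP-like cells below the limit, 16.2 ± 3.91 CPM in GMPs and 7.94 ± 2.23 CPM in neutrophil-like cells. Macrophage-like and basophil/mast/eosinophil-like cells reached 20 cells in fewer than 6 mice and lie outside these orders. Slc29a1 stood higher in the macrophage-like cluster 13, at 124 ± 67.5 CPM (3 mice). Ctps2 stood at 2.23 ± 2.61 CPM (4 mice) in the basophil/mast/eosinophil-like cluster 12, below its erythroid-like level.

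Dhodh ran from 15.2 ± 2.78 CPM in erythroid-like and 14.6 ± 3.16 CPM in monocyte-like cells over 13.2 ± 2.98 CPM in HSC/MPP-like and 7.95 ± 1.29 CPM in GMPs to 4.17 ± 2.89 CPM in neutrophil-like and 5.13 ± 5.97 CPM in B-cell-like cells, the last from 7 UMIs in all. Its highest class was monocyte-like cells when mice were assigned by tag ratios or Scrublet-marked cells were left out. Umps lay between 47.4 and 60.9 CPM in erythroid-like, monocyte-like and HSC/MPP-like cells, GMPs and GMP-like cells below the limit, at 30.3 ± 8.35 CPM in B-cell-like cells and at 18.6 ± 3.00 CPM in neutrophil-like cells. Uck2 was highest in monocyte-like cells at 92.8 ± 13.2 CPM and lowest in neutrophil-like cells at 11.5 ± 2.17 CPM. Uck1 lay between 9.89 and 15.6 CPM in all 7 classes. Nme1 was highest in GMPs at 541 ± 96.3 CPM, with 482 ± 60.7 CPM in erythroid-like cells and 95.7 ± 19.5 CPM in neutrophil-like cells, but highest in erythroid-like cells when library totals replaced TMM factors. The GMP mean covers 9 mice and the erythroid-like mean 6, of which 1 was a Veh mouse, and in these 6 mice GMPs were higher in 3 (log2 difference 0.12 ± 0.23, SD, adjusted p = 0.484, exact permutation test).

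Ctps2 and Cmpk1 differed from the rest in order. Ctps2 was highest in neutrophil-like cells at 26.9 ± 6.86 CPM and lowest in erythroid-like cells at 7.21 ± 2.73 CPM. Cmpk1 was at 145 ± 26.4 CPM in neutrophil-like, 146 ± 43.4 CPM in B-cell-like, 122 ± 12.4 CPM in GMPs and 90.2 ± 11.5 CPM in HSC/MPP-like cells. On library totals the neutrophil-like level fell to 18.6 CPM for Ctps2 and to 100.5 CPM for Cmpk1, and monocyte-like cells were then highest for both, so the top of these 2 orders depends on the scaling. None of the 60 pairs of neighbours in the 10 orders passed at an adjusted p under 0.05 (exact two-sided sign-flip permutation test over mice). The smallest adjusted p was 0.0586, the smallest unadjusted p that 6 mice allow is 0.0312 and that 9 allow is 0.00391. Adjusted over 60 pairs, a pair at such a floor cannot pass on its own. The lack of calls therefore does not show that neighbours had like levels. On the TMM scale several neighbours differed in the same direction in all mice, among them GMPs above neutrophil-like cells for Cad and Slc29a1 (9 of 9 each).

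**Figure D4:**
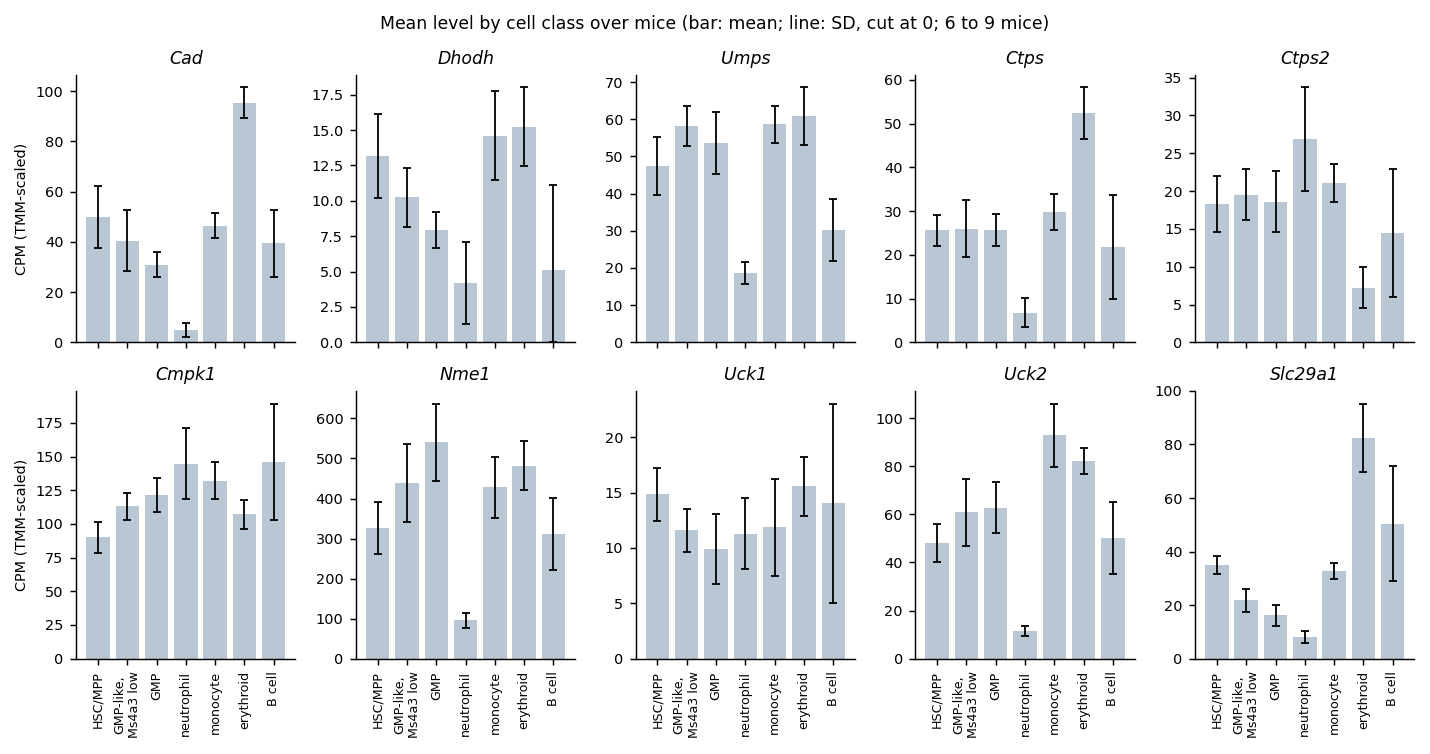
Mean level of each gene by cell class (CPM on 1 TMM scale for all classes, vertical axis from 0) over 6 to 9 mice, with the SD as a line cut at 0. Among the classes shown, erythroid-like cells are highest for Cad, Ctps and Slc29a1 and lowest for Ctps2, and neutrophil-like cells are lowest for Nme1 at 95.7 CPM.

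Within GMPs, cells were ordered by an S phase score of 30 genes that include none of the 10, all GMPs were split into tertiles, and each mouse's cells of the top tertile were compared with its cells of the bottom tertile. Median UMIs per cell were 13496 in the bottom and 13999 in the top tertile. Ctps rose from 18.01 ± 4.34 to 31.3 ± 5.13 CPM, a log2 difference of 0.78 ± 0.40 (SD, n = 9), and Umps from 39.4 ± 8.49 to 63.6 ± 12.2 CPM, a difference of 0.69 ± 0.16. Both were higher in 9 of 9 mice (p = 0.00391, the smallest that 9 mice allow, adjusted p = 0.0195, exact sign-flip permutation test). Slc29a1 rose by 0.73 ± 0.76 in 8 of 9 mice (adjusted p = 0.0391, exact permutation test), Nme1 by 0.12 ± 0.10 in 8 of 9 mice (adjusted p = 0.0391, exact permutation test), and Cad by 0.27 ± 0.26 and Uck2 by 0.26 ± 0.39 in 7 of 9 mice each (adjusted p = 0.0456, exact permutation test). Ctps2 differed by 0.01 ± 0.42, Dhodh by 0.19 ± 0.75, Cmpk1 by 0.12 ± 0.28 and Uck1 by 0.29 ± 0.98, without passing the test. When mice were assigned by tag ratios, Uck1 passed, at 0.50 ± 0.51 and higher in 7 of 9 mice (adjusted p = 0.0391, exact permutation test).

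The top tertile of the score held 20.5% to 30.5% of GMPs in NTB mice, 25.3% to 38.4% in Veh mice and 29.9% to 45.9% in BRQ mice. When equal numbers of cells were taken from each tertile in every mouse, Nme1 stood at 0.56 ± 0.09 for Veh against NTB (adjusted p = 0.00029) and −0.28 ± 0.08 for BRQ against Veh (adjusted p = 0.027), and Ctps2 at 0.53 ± 0.13 for BRQ against Veh (adjusted p = 0.0092). Nme1 for BRQ against NTB (0.28 ± 0.09, adjusted p = 0.066) and Cad for Veh against NTB (0.53 ± 0.19, adjusted p = 0.086, all edgeR) then did not pass.

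**Figure D5:**
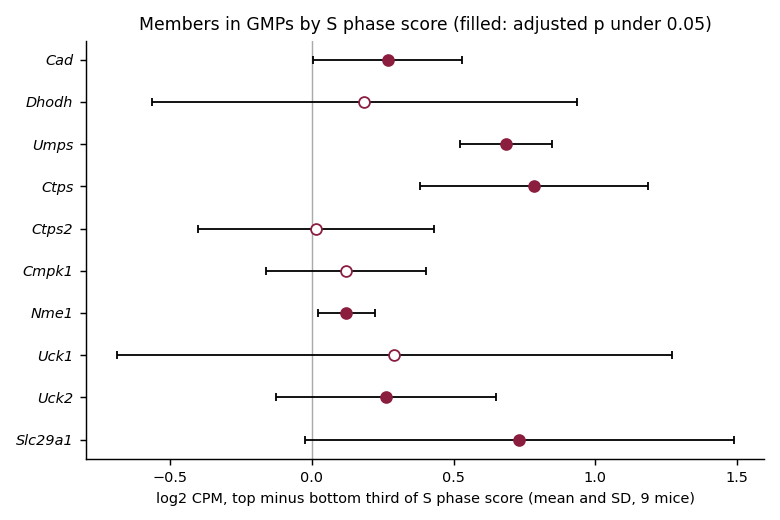
Difference in log2 CPM between the top and the bottom tertile of the S phase score in GMPs for each gene, as mean and SD over 9 mice (filled circles, adjusted p under 0.05). Umps and Ctps lie farthest from 0 relative to their SD, at 0.69 and 0.78, and Ctps2 lies at 0.01.

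The rest of the pathway was described with 48 further genes of pyrimidine salvage, breakdown, transport, kinases and deoxynucleotide supply, of which 33 were tested in GMPs. Between Veh and NTB 4 were higher and none lower: Nme2, and from deoxypyrimidine supply Rrm2, a subunit of ribonucleotide reductase (0.49 ± 0.10, adjusted p = 0.0036), Dtymk, the thymidylate kinase (0.33 ± 0.08, adjusted p = 0.013), and Dut, the dUTPase (0.33 ± 0.09, adjusted p = 0.018, all edgeR). Dut was at 516 ± 9.11 CPM in Veh and 413 ± 40.4 CPM in NTB GMPs. Between BRQ and Veh none was higher and 3 were lower, all from the kinases and phosphatases: Nme2, Nme6 (−0.53 ± 0.11, adjusted p = 0.002) and Entpd5 (−0.45 ± 0.11, adjusted p = 0.008, edgeR). Nme6 was at 31.8 ± 0.524 CPM in BRQ and 44.9 ± 4.69 CPM in Veh GMPs. Between BRQ and NTB 1 was higher, Dut (0.30 ± 0.09, adjusted p = 0.046, edgeR), and none lower. Deoxypyrimidine supply, with all 13 genes tested, had medians of 0.14, −0.08 and 0.09 in the 3 comparisons.

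For comparison, 27 genes of purine synthesis, purine salvage and UTP or CTP use were all tested in GMPs. Of 11 purine synthesis genes Gmps, the GMP synthase of guanine nucleotide synthesis, was higher in Veh than in NTB (0.53 ± 0.11, adjusted p = 0.0031) and in BRQ than in NTB GMPs (0.38 ± 0.11, adjusted p = 0.037), and Adssl1 was lower in BRQ than in NTB GMPs (−0.48 ± 0.11, adjusted p = 0.014, edgeR). Of 6 purine salvage genes Aprt, the adenine phosphoribosyltransferase, was lower in BRQ than in Veh GMPs (−0.43 ± 0.09, adjusted p = 0.002, edgeR), and of 10 genes that use UTP or CTP none was called. The purine synthesis genes had a median of 0.17 between Veh and NTB, beside 0.24 for the 3 de novo pyrimidine genes. In the other classes the 48 pathway genes are given by counts beside the shares of all genes. In HSC/MPP-like cells 36 were tested, with 2 higher for Veh against NTB (2.96% of all genes called), none called for BRQ against Veh (0.056%) and 2 higher and 1 lower for BRQ against NTB (6.94%). In monocyte-like cells 1 of 32 was higher for Veh against NTB (3.46%), and none was called for BRQ against Veh (5.18%) or BRQ against NTB (2.83%). In neutrophil-like cells 31 were tested, with 7 higher and 4 lower for Veh against NTB (21.3%), none called for BRQ against Veh (0.0239%) and 5 higher and 1 lower for BRQ against NTB (8.78%). In GMPs the same shares were 11.3%, 13.4% and 6.01%.

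Across 16 clusters of at least 100 cells, the genes whose mean levels ran most like those of the members differed by member. The 3 genes closest to Cad were Gnl3, Utp20 and Grwd1 (Pearson r of log2(CPM + 1) 0.991 to 0.996), to Nme1 Nop10, Mrpl2 and Ddx18 (0.989 to 0.992), to Umps Npm3, Hsp90aa1 and Naa10 (0.991 to 0.995) and to Ctps Nop56, Bms1 and Eif4g1 (0.986 to 0.989). For Uck2 they were Atp5b, Exosc3 and Slc25a5 (0.984 to 0.985), for Dhodh Zfp609, Rae1 and Ccdc137 (0.974 to 0.985), for Slc29a1 Ubqln1, Coa5 and Hadhb (0.943 to 0.979) and for Uck1 Hnrnpdl, Pofut1 and Akap8 (0.958 to 0.964). Cmpk1 ran less closely with Cdc25c, Usp5 and Etfa (0.873 to 0.878), and Ctps2 with Nsrp1, Ocel1 and Snx6 (0.706 to 0.746). Between members, r was 0.975 for Cad and Ctps and 0.979 for Umps and Nme1, while Ctps2 gave −0.348 to −0.085 with the other 9. The clusters share libraries and differ in depth, so these values are descriptions across clusters.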

How the data were processed

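The authors deposited UMI counts per gene or hashtag and barcode, made with Cell Ranger 6.0.0 against mm10 per the labels and submitters' processing notes. The members and lists were chosen with earlier results of these data known. Barcodes with over 15% mitochondrial UMIs or outside 500 to 7500 detected genes were dropped (the study words these limits as transcripts, and read as UMIs they left 433 instead of 3916 GMPs, with no member called in GMPs), and HTODemux (Seurat 5.3.0, quantile 0.99) assigned mice. Leiden clusters (scanpy 1.11.5, 30 components, resolution 0.8) were found without listed genes and named by markers, and 3 of 18 stayed unnamed. Doublets called by hashtags were dropped, and those marked by Scrublet in an alternative. UMIs were summed per mouse and class with at least 20 cells and fitted in edgeR 4.0.16 over all mice (TMM, filterByExpr), with the SE as the absolute log2 fold change over the root of F. Sums held 998154 to 16074010 UMIs in GMPs and 332112 to 5976717 in neutrophil-like cells. DESeq2 1.42.0 and other settings were alternatives, and limma 3.58.1 tested differences between classes. Called genes of the pathway lists, up to 4 per list, and 3 alike genes per member are named.

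Mice of 1 pool shared a lane per the labels, which pairs them. Centred log2 values correlated with a median r of 0.088 within and −0.046 between pools in GMPs. Code was tested on simulated counts.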

Additional observations from a re-analysis of the deposited data

Results flagged for a closer look

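For Veh against NTB, the response of Cmpk1 in GMPs exceeded that in neutrophil-like cells by 0.55 on the log2 scale (SE 0.17, adjusted p = 0.028, limma), the difference itself being tested. It was the only call among the 8 members tested, where 23.7% of all 8088 genes were called. The response of Cmpk1 was 0.12 ± 0.10 in GMPs and −0.43 ± 0.18 in neutrophil-like cells, and neither was called. Between 0 and 3 members were called when 1 mouse was left out. Cmpk1 was lost without NTB mouse 1, 2 or 3 or without Veh mouse 2, and Ctps and Nme1 were added without Veh mouse 1. The neutrophil-like class consisted of different clusters in the 2 groups, and the part of this makeup was not tested beyond the values within clusters given above.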

How the results depend on the processing

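Over 2351 recomputed values for members, 2261 kept their direction and side of the threshold, 63 calls were lost, 27 were gained and 0 called values changed sign, while 167 values that were not called in either setting changed sign. Called members of GMPs for Veh against NTB went from 2 to 1 with RLE factors, library totals, DESeq2 and equal S phase tertiles. They also went to 1 in cluster 0 only and in cluster 1 only, fits added after the data were seen. Limits read as UMIs per cell left 433 GMPs and groups of 1 mouse, too few to read the count. With GMP-like clusters and the limit of 2.5 the called members went to 3 (Uck2 gained). For BRQ against Veh they went from 2 to 1 with no filter, GMP-like clusters, the limit of 2.5 and cluster 1 only, to 0 with UMI limits and to 3 with library totals (Nme1 lost, Slc29a1 and Cmpk1 gained). For BRQ against NTB they went from 1 to 2 with library totals, to 4 with GMP-like clusters, to 3 with the limit of 2.5 and to 0 with UMI limits, equal tertiles, cluster 0 only and cluster 1 only. In HSC/MPP-like cells Veh against NTB went from 3 to 1 with DESeq2, resolution 0.5 and equal tertiles, to 2 with library totals (Cad lost, 0.59, adjusted p = 0.058, edgeR) and to 0 with UMI limits, and BRQ against NTB from 2 to 1 with equal tertiles and to 0 with UMI limits and resolution 0.5. In monocyte-like cells Veh against NTB went from 2 to 1 with library totals, resolution 0.5 and equal tertiles, BRQ against Veh from 0 to 1 with tag ratios, and BRQ against NTB from 0 to 2 with library totals and no filter and to 1 with DESeq2, tag ratios and no Scrublet-marked cells. In neutrophil-like cells it became 1 for Veh against NTB with UMI limits (Cmpk1) and 1 for BRQ against NTB with tag ratios and in cluster 2 only (Nme1). Tag ratios made 5 of the 60 neighbour pairs pass. The cause of these changes was not tested. For most settings, the fits without 1 mouse included, the share of all genes called is not given beside these counts. A higher or lower count is therefore not a result about the members as against other genes.

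With the pool as a replicate block, members called in GMPs were 3, 2 and 1 in the 3 comparisons, in monocyte-like cells 2, 1 and 2, and 2 for the difference between GMPs and neutrophil-like cells in Veh against NTB (Cmpk1 and Nme1), and the block changed no other call. Over all genes it raised the calls by over 1.5 times in GMPs for BRQ against Veh (1389 to 2105) and BRQ against NTB (621 to 1217), in HSC/MPP-like cells for BRQ against Veh (6 to 14), in neutrophil-like cells for BRQ against Veh (2 to 47) and BRQ against NTB (733 to 1494), and in monocyte-like cells for BRQ against Veh (492 to 793) and BRQ against NTB (269 to 461). Library totals raised those in GMPs to 2243 and 1319 and in monocyte-like cells for BRQ against NTB to 422. Leaving out 1 mouse gave 1 to 2, 0 to 2 and 0 to 1 members in GMPs, 0 to 3, 0 and 2 in HSC/MPP-like cells, 1 to 2, 0 and 0 to 2 in monocyte-like cells and 0 to 3 for that difference. In HSC/MPP-like cells a lone Veh mouse was then assumed to vary like the others. The fit of monocyte-like cells under UMI limits was not run, because no NTB mouse had 20 cells. Erythroid-like cells were not compared between groups, because only 1 Veh mouse reached 20 cells. With 3 mice per group and 6 to 120 Dhodh UMIs per mouse, small changes of the sparse genes could not be seen.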
